A study of Mus musculus with 6 samples.

Results

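The genes described here are the SNARE and synaptotagmin machinery of regulated exocytosis in mouse duodenum. They were taken by symbol, as the numbered Syt, Stx, Vamp, Stxbp and Cplx genes, Rab3a to Rab3d, Rab27a and Rab27b, Snap23, Snap25, Snap29, Snap47, Scgn, Syp, Ptprn and Ptprn2. This gave 64 of the 23235 gene symbols in the tables, each with 1 row, and 56 of them passed the filter for testing, a mean of at least 0.1 FPKM (fragments per kilobase of transcript, scaled by the mapped fragments of the library) over all libraries.

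RNA was sequenced from the first 2 cm of duodenum of 6-week-old mice on a mixed background, 3 control and 3 mutant, with 1 library per mouse. The controls were Nkx2.2flox/+ without Cre, and controls 1 and 2 also carried the Rosa26Tomato reporter allele, which control 3 lacked. The mutants, called TNint in the study's own text, were Nkx2.2flox/TN with Villin-Cre and Rosa26Tomato, so every animal had a floxed Nkx2.2 allele. Villin-Cre is active in intestinal epithelium, so recombination is expected there and not in nerve, muscle or immune cells of the same piece, whereas the TN allele was carried by the whole animal. Nkx2.2 is a homeodomain factor of enteroendocrine cell fate, and TN is known as an allele in which its tinman domain is mutated. Cre, the number of intact Nkx2.2 copies and the TN allele differ together between the groups and cannot be told apart. The Rosa26Tomato allele, carried by the mutants but not by control 3, differs in part with the group as well.

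Secretory vesicles fuse with the plasma membrane when a SNARE on the vesicle (a VAMP) pairs with SNAREs on the target membrane (a syntaxin and a protein of the SNAP-25 family) to form a tight helical bundle. SM proteins such as the products of Stxbp2 and Stxbp3a hold and guide the syntaxin, Rab3 and Rab27 GTPases bring granules to the membrane, complexins act on the assembled bundle, and synaptotagmins sense calcium. Neurons and endocrine cells of the gut use one set of these proteins (Snap25, Stx1a, Vamp2, Syt1), while absorptive, goblet and blood-derived cells rely on others (Snap23, Stx3, Vamp8, Stxbp2).

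Depth, read from the FPKM confidence intervals as the reads they imply, ran from 14210000 to 25910000 reads per library. Nkx2-2 itself was at 1, 1.03 and 1.27 FPKM in controls 1 to 3, against 0.748, 0.744 and 0.666 FPKM in mutants 1 to 3. Vil1, the villin gene of enterocytes, lay between 630.2 and 699 FPKM in the 6 libraries. The pieces were whole wall, and in such bulk tissue fewer cells of a type and less RNA per cell cannot be told apart. Pancreatic acinar transcripts varied between pieces, with Ctrb1 at 4.61, 87.3 and 2171 FPKM in controls 1 to 3 and 727, 648 and 3027 FPKM in mutants 1 to 3. All 10 acinar markers had higher estimates in mutants (median log2 fold change 3.37). Their groups overlapped, and none had an unadjusted p under 0.05 in limma. The labels name separate mice but no litter, lane or date.

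No member passed an adjusted p of 0.05 in limma over all genes, and the smallest adjusted p among the members was 0.79. The same threshold called 0% of the 15864 rows tested. At an unadjusted p under 0.05, 6 of the 56 tested members (10.7%) were lower in mutants, against 4.32% of all rows, and 2 (3.57%) were higher, against 1.49% of all rows, and in either direction the background was 5.81%. The 6 with lower values were Rab3b, Rab3c, Snap25, Syt1, Syt4 and Ptprn, and the 2 with higher values were Scgn and Vamp8. Over all rows that was 685 lower and 237 higher, which became 494 and 401 with trimmed mean scaling of the libraries, under which 5 members were lower and 2 higher. With the replicate number as a block, 5 members were lower and 1 was higher at that threshold, beside 5.09% and 2.8% of all rows. The groups did not overlap with all mutants below all controls for 8 of 56 members (14.3%), against 9.92% of all rows, and with all mutants above for 2 (3.57%), against 3.13% of all rows. Complete separation of 3 mice from 3 gives p = 0.1 in a two-sided exact permutation test, the smallest it allows. The members' median log2 fold change was −0.11 (mutant minus control, on log2(FPKM + 0.1)), beside −0.05 for all rows, and 42 of 56 members (75%) had a negative value, as did 61.3% of all rows. With trimmed mean scaling 39 of the 56 were negative, and with quantile normalization 41.

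**Figure D1:**
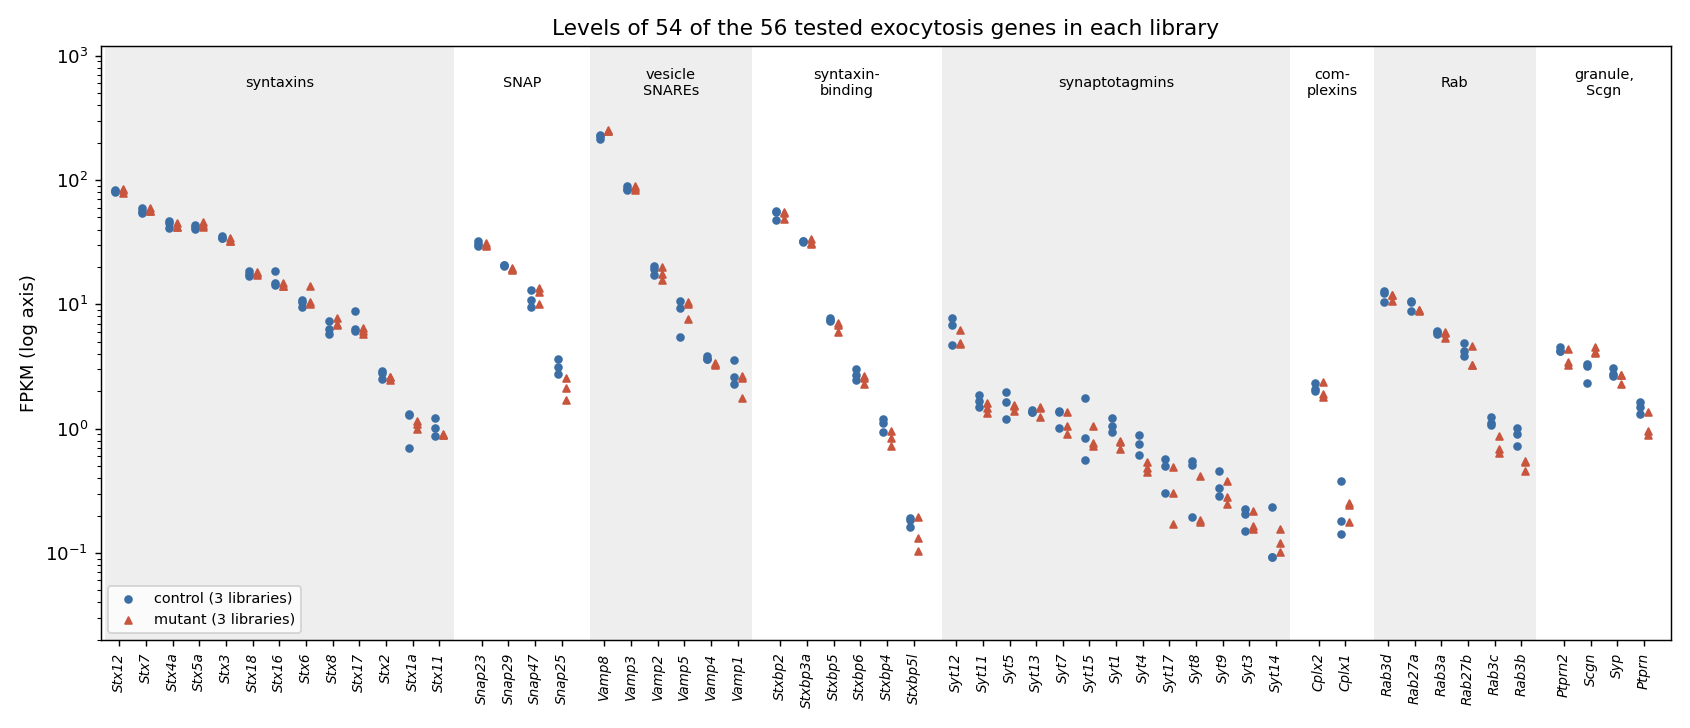
FPKM on a log axis for 54 of the 56 tested members, ordered by role and by mean level, with circles for the 3 control and triangles for the 3 mutant libraries. Levels span from Vamp8, near 236 FPKM on average, down to Syt14, near 0.133 FPKM, and for most genes the groups overlap.

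Among the vesicle SNAREs, Vamp8, which serves granule release in exocrine and blood-derived cells and endosomal fusion, was the most abundant member of the whole machinery. It was at 225.03, 228.4 and 213 FPKM in controls 1 to 3, against 246.01, 246.9 and 255.04 FPKM in mutants 1 to 3, so each mutant lay above each control. The means were 222 ± 8.01 and 249 ± 4.98 FPKM (SD, n = 3 each). Its log2 fold change was 0.17 (SE 0.07), with limma adjusted p = 0.79 and unadjusted p = 0.0498, and it stayed under 0.05 in 7 of 19 alternative fits. Vamp8 (mm9, chromosome 6, 72335215 to 72340661, minus strand, protein coding) had a mean of 2713 implied reads per library, so its small difference was measured on many reads.

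The other vesicle SNAREs showed no such separation upward. Vamp3, the broadly expressed recycling endosome SNARE, had 85.5 ± 3.01 FPKM in controls against 86.7 ± 3.02 in mutants (SD, n = 3 each). Vamp2, the neuronal and endocrine granule SNARE, had 18.8 ± 1.58 and 17.7 ± 2.05 FPKM, a log2 fold change of −0.09 with a 95% interval from −0.35 to 0.17. A change of the size estimated for Snap25 lay outside that interval. Vamp4, a SNARE of the trans-Golgi network, lay at 3.64, 3.85 and 3.6 FPKM in controls, against 3.39, 3.26 and 3.33 FPKM in mutants, all mutants below, with a log2 fold change of −0.15 (limma adjusted p = 0.79). Vamp1 and Vamp5 overlapped between the groups, with means of 2.82 and 8.44 FPKM in controls and 2.32 and 9.34 FPKM in mutants. Vamp7 was placed on unassigned X chromosome sequence in the tables and was listed at 0 FPKM in every library.

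The SNAP proteins differed by paralog. Snap25, the SNAP of neurons and endocrine cells, was at 3.61, 2.75 and 3.12 FPKM in controls 1 to 3, against 1.69, 2.54 and 2.11 FPKM in mutants 1 to 3. Every mutant lay below every control, with control 2 and mutant 2 close together. Means were 3.16 ± 0.428 and 2.11 ± 0.425 FPKM (SD, n = 3 each). The log2 fold change was −0.57 (SE 0.18, 95% interval −0.99 to −0.14), with limma adjusted p = 0.79 and unadjusted p = 0.016. The gene (mm9, chromosome 2, 136539186 to 136608164, plus strand, protein coding) rested on a mean of 98.8 implied reads per library. Without control 1 the log2 fold change was −0.47 (unadjusted p = 0.055).

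Its paralogs Snap23, Snap29 and Snap47 were several times more abundant and had smaller estimated differences between groups. Snap23, the broadly expressed form, had 32.4, 30.8 and 29.5 FPKM in controls and 30.2, 29.5 and 31.2 FPKM in mutants, with a log2 fold change of −0.03 and a 95% interval from −0.19 to 0.13. Within each library the ratio of Snap25 to Snap23 was 0.111, 0.0893 and 0.105 in controls and 0.0559, 0.086 and 0.0678 in mutants, a measure that does not depend on how libraries are scaled. This ratio carries no test, and since Snap23 was near equal it largely restates the values of Snap25 and adds no support to them. Snap29, a SNAP of endosomal and autophagic fusion, had 20.6 ± 0.244 and 19.4 ± 0.43 FPKM (SD, n = 3 each), with all mutants below all controls and a log2 fold change of −0.09. Snap47 overlapped, at 11.1 ± 1.79 and 12.03 ± 1.77 FPKM.

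Syntaxins gave no difference that stood out from the spread between mice. Of 15, 14 were tested, with 7 negative and 7 positive values, a median log2 fold change of −0.02, and none at an unadjusted p under 0.05. The most abundant were Stx12 and Stx7 of endosomes, at 81.7 ± 1.74 and 56.8 ± 2.7 FPKM in controls and 81.9 ± 2.99 and 57.6 ± 1.53 FPKM in mutants (SD, n = 3 each). Next came Stx4a, a plasma membrane syntaxin, at 44.4 ± 3.01 and 42.99 ± 1.73 FPKM. Stx3, the apical syntaxin of enterocytes, had 34.7 ± 0.741 FPKM in controls and 33.1 ± 1.06 in mutants, a log2 fold change of −0.07 with a 95% interval from −0.22 to 0.08.

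Stx1a, the neuronal and endocrine partner of Snap25, was at 1.3, 1.32 and 0.704 FPKM in controls, against 1.15, 1.08 and 0.985 FPKM in mutants. The mutants fell inside the range of the controls, and control 3 was the lowest library. Its log2 fold change was 0.00 (SE 0.25), and the 95% interval from −0.59 to 0.59 includes a change as large as that estimated for Snap25. Stx19 was below the filter, with 2, 0 and 0 implied reads in controls and 3, 0 and 1 in mutants.

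The log2 fold changes of all 7 syntaxin-binding and SM genes were negative (5 of 7 with trimmed mean scaling), and none had an unadjusted p under 0.05. Stxbp2, the SM protein of epithelial and cytotoxic cells, was the most abundant of them and level, at 52.96 ± 4.62 and 52.8 ± 3.47 FPKM (SD, n = 3 each). Stxbp3a, the widely expressed form, had 32.2 ± 0.392 and 31.8 ± 1.47 FPKM. Stxbp5, tomosyn, which competes for target SNAREs, had 7.81, 7.28 and 7.42 FPKM in controls and 6.77, 7.11 and 6.03 FPKM in mutants, all mutants below, with a log2 fold change of −0.18 (limma adjusted p = 0.79). Stxbp4 had 1.08 ± 0.127 and 0.834 ± 0.115 FPKM, Stxbp6 had 2.74 ± 0.286 and 2.5 ± 0.174 FPKM, and Stxbp5l was at 0.178 ± 0.0137 and 0.143 ± 0.0465 FPKM.

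Synaptotagmins were low in the duodenum. Of 17, 13 were tested, with mean levels from 0.133 to 5.86 FPKM, and 12 of the 13 log2 fold changes were negative (median −0.18), or 9 of 13 with quantile normalization. At such levels negative values were common, at 70.5% of all rows between 1 and 10 FPKM and 67.7% of those under 1 FPKM. Syt1, the fast calcium sensor of synaptic and endocrine vesicles, was at 1.21, 0.94 and 1.05 FPKM in controls, against 0.791, 0.78 and 0.688 FPKM in mutants, with no overlap. Its log2 fold change was −0.45 (SE 0.16, 95% interval −0.83 to −0.06), with limma adjusted p = 0.79 and unadjusted p = 0.029. Syt1 (mm9, chromosome 10, 107934706 to 108448031, minus strand, protein coding) rested on a mean of 76.4 implied reads.

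Syt4, a synaptotagmin of dense-core granules, was at 0.75, 0.615 and 0.888 FPKM in controls, against 0.485, 0.536 and 0.447 FPKM in mutants, again with each mutant below each control. Its log2 fold change was −0.52 (SE 0.19, limma adjusted p = 0.79, unadjusted p = 0.032). Syt1 and Syt4 each stayed under an unadjusted p of 0.05 in 10 of 18 alternative fits. Syt7 and Syt9 overlapped between groups, with Syt7 at 1.25 ± 0.206 and 1.1 ± 0.23 FPKM and Syt9 at 0.359 ± 0.0844 and 0.301 ± 0.0667 FPKM (SD, n = 3 each).

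The 3 highest synaptotagmins were Syt12, at 6.43 ± 1.54 and 5.3 ± 0.768 FPKM, Syt11, at 1.67 ± 0.174 and 1.46 ± 0.137 FPKM, and Syt5, at 1.61 ± 0.393 and 1.48 ± 0.0792 FPKM (SD, n = 3 each). Syt11 and Syt12 do not bind calcium in the manner of Syt1. Syt13, another synaptotagmin without calcium binding and known from endocrine cells, was the one tested synaptotagmin with a positive value, at 1.42, 1.36 and 1.37 FPKM in controls, against 1.47, 1.49 and 1.24 FPKM in mutants, a log2 fold change of 0.01 with a 95% interval from −0.31 to 0.33. Log2 fold changes of Syt8 and Syt17 were −0.5 and −0.45, with standard errors of 0.41 and 0.35 on means of 8.7 and 10.8 implied reads. Syt15 ranged from 0.561 to 1.76 FPKM in controls and covered all 3 mutants, and Syt3 and Syt14 were under 0.25 FPKM in every library.

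Of the 4 synaptotagmins below the filter, Syt10 was listed at 0 FPKM in every library, and Syt6 and Syt16 had means of 4.8 and 3.8 implied reads. Syt2, the close relative of Syt1, had 9, 6 and 7 implied reads in controls and 3, 6 and 3 in mutants. Its FPKM values of 0.201, 0.0894 and 0.111 in controls and 0.0564, 0.0732 and 0.0433 in mutants did not overlap. Complexins were near silent apart from Cplx2, at 2.16 ± 0.172 and 2.01 ± 0.302 FPKM (SD, n = 3 each). Cplx1 had 0.235 ± 0.129 and 0.224 ± 0.0419 FPKM, Cplx3 had 1 implied read in a single library, and Cplx4 was listed at 0.

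Rab3b and Rab3c, vesicle GTPases of neuronal and endocrine granules, held the largest negative estimates of the machinery among the 56 tested members. The windows before their start sites are shown because both paralogs had lower values in the mutants, beside those of Scgn, which had higher values, and of Rab3d, which was near equal. Each is the 250 bases before the RefSeq start on build GRCm38.p6, 5′ to 3′ on the gene's strand, and capitals mark matches to the motifs searched.
Rab3b (chr4:108878820-108879069, plus strand): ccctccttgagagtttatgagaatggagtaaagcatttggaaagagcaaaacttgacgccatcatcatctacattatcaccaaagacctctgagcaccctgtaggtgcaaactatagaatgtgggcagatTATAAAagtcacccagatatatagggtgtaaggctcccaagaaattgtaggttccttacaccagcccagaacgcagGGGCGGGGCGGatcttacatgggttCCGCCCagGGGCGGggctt
Rab3c (chr13:110280207-110280456, minus strand): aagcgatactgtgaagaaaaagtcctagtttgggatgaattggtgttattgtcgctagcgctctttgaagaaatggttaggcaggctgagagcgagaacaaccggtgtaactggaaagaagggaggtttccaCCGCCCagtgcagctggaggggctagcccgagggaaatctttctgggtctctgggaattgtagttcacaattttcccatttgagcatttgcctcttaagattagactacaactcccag
Scgn (chr13:23991215-23991464, minus strand): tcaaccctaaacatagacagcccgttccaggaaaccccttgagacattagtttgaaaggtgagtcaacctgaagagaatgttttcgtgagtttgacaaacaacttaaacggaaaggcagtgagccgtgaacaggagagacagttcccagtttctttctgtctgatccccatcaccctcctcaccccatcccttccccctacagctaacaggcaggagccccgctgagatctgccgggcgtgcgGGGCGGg
Rab3d (chr9:21918184-21918433, minus strand): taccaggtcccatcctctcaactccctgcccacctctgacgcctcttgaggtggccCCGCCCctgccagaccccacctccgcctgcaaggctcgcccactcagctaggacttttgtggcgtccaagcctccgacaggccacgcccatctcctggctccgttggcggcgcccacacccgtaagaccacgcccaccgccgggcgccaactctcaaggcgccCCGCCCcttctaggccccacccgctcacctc

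The motifs searched, on both strands, were TNAAGTG (the core bound by NK2 homeodomain proteins), CAGATG (an E-box), TTCAGCACC and GGACAGC (parts of the RE1 element bound by REST), TGACGTCA (the cyclic AMP response element), GGGCGG (the GC box) and TATAAA (the TATA box). Only GC boxes and, in Rab3b, 1 TATA box matched in these 4 windows. The window of Rab3b held 4 GC boxes, of which 2 share a base, that of Rab3d held 2, and those of Rab3c and Scgn held 1 each. Windows were found for 49 of the 64 members, 63 windows in all. The GC box was in 61.9% of them and in 32.7% of all 32851 windows, and the median GC content was 60.4% and 52.4%. The NK2 core was in 11.1% of member windows and 10.1% of all windows, and the E-box in 4.76% and 14.4%. GGACAGC was in 6.35% and 5.28% and TATAAA in 4.76% and 12.4%. Neither TTCAGCACC nor TGACGTCA was in a member window, and they were in 0.301% and 1.55% of all windows. A match is a stretch of letters in this window and does not show binding.

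Rab3b was at 0.73, 1 and 0.908 FPKM in controls 1 to 3, against 0.538, 0.549 and 0.457 FPKM in mutants 1 to 3. The mutants were close to each other and each lay below the lowest control, control 1. Means were 0.881 ± 0.139 and 0.515 ± 0.0501 FPKM (SD, n = 3 each), 41.6% lower in mutants. The log2 fold change was −0.67 (SE 0.19, 95% interval −1.11 to −0.23), with limma adjusted p = 0.79 and unadjusted p = 0.0091. The gene (mm9, chromosome 4, 108551675 to 108615929, plus strand, protein coding) rested on a mean of 41.6 implied reads.

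Rab3c was at 1.07, 1.11 and 1.24 FPKM in controls, against 0.641, 0.874 and 0.682 FPKM in mutants, again without overlap and with mutant 2 nearest to the controls. Means were 1.14 ± 0.0888 and 0.732 ± 0.125 FPKM (SD, n = 3 each), 35.8% lower in mutants. The log2 fold change was −0.58 (SE 0.17, 95% interval −0.99 to −0.18), with limma adjusted p = 0.79 and unadjusted p = 0.012. Rab3c (mm9, chromosome 13, 110844396 to 111070414, minus strand, protein coding) had a mean of 153.8 implied reads.

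The more abundant Rab3 paralogs were level. Rab3a, the main Rab3 of neurons, had 6.04, 5.75 and 6.13 FPKM in controls and 5.37, 5.9 and 5.98 FPKM in mutants, a log2 fold change of −0.06 with a 95% interval from −0.26 to 0.15. Rab3d, known from exocrine granules, had 11.9 ± 1.22 and 11.5 ± 0.73 FPKM (SD, n = 3 each), with a log2 fold change of −0.05. The ratio of Rab3b to Rab3a within a library was 0.121, 0.175 and 0.148 in controls and 0.1, 0.0929 and 0.0765 in mutants. That of Rab3c to Rab3a was 0.177, 0.194 and 0.202 in controls and 0.119, 0.148 and 0.114 in mutants. In both ratios every mutant lay below every control. These ratios carry no test, and since the genes were paired with their own differences in view they add no support to them. Rab27a and Rab27b, which carry effectors to granules of blood-derived, epithelial and endocrine cells, overlapped, at 9.97 ± 1.01 and 8.97 ± 0.0966 FPKM and at 4.32 ± 0.504 and 3.71 ± 0.802 FPKM.

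**Figure D2:**
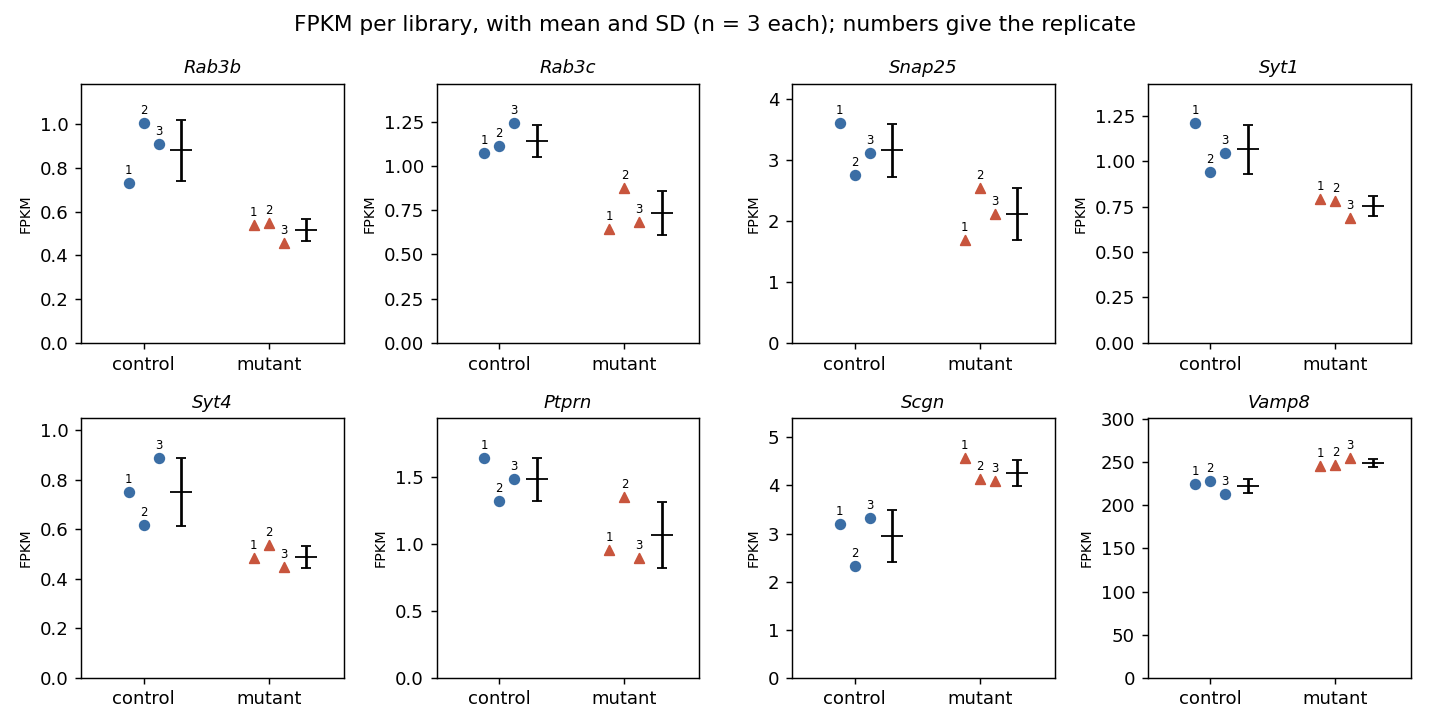
FPKM in each library, on a linear axis from 0, for the 8 members with an unadjusted p under 0.05 in limma, with numbered points for the replicates and a bar for mean and SD (n = 3 each). Mutants lie below all controls for Rab3b, Rab3c, Snap25, Syt1 and Syt4 and above all controls for Scgn and Vamp8, while for Ptprn mutant 2 falls within the control range.

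Scgn, secretagogin, a calcium-binding protein of endocrine cells that binds Snap25, had higher values in the mutants. It was at 3.19, 2.32 and 3.32 FPKM in controls 1 to 3, against 4.57, 4.13 and 4.08 FPKM in mutants 1 to 3, with every mutant above every control. The log2 fold change was 0.53 (SE 0.15, 95% interval 0.17 to 0.9), with limma adjusted p = 0.79 and unadjusted p = 0.011. Scgn (mm9, chromosome 13, 24045326 to 24083083, minus strand, protein coding) had a mean of 86.5 implied reads. Relative to Chga, the chromogranin A granule protein, Scgn stood at 0.0987, 0.0579 and 0.0924 in controls and at 0.346, 0.225 and 0.274 in mutants. Chga itself was lower in mutants (log2 fold change −1.23), so this ratio holds the differences of both genes.

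Of the granule membrane proteins, 1 of 3 had an unadjusted p under 0.05. Ptprn, a transmembrane phosphatase-like protein of dense-core granules, was at 1.64, 1.32 and 1.49 FPKM in controls, against 0.951, 1.35 and 0.896 FPKM in mutants, with mutant 2 among the controls. The log2 fold change was −0.46 (SE 0.19, limma adjusted p = 0.79, unadjusted p = 0.048), and the unadjusted p stayed under 0.05 in 5 of 19 alternative fits. Ptprn lies on mm9 chromosome 1, 75243616 to 75260783, minus strand, and is protein coding. Its paralog Ptprn2 had 4.32 ± 0.182 and 3.7 ± 0.621 FPKM, and Syp, synaptophysin, a vesicle membrane protein of neurons and endocrine cells, had 2.84 ± 0.23 and 2.55 ± 0.233 FPKM (SD, n = 3 each). The log2 fold changes of this pair were −0.23 and −0.15, with overlapping groups.

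**Figure D3:**
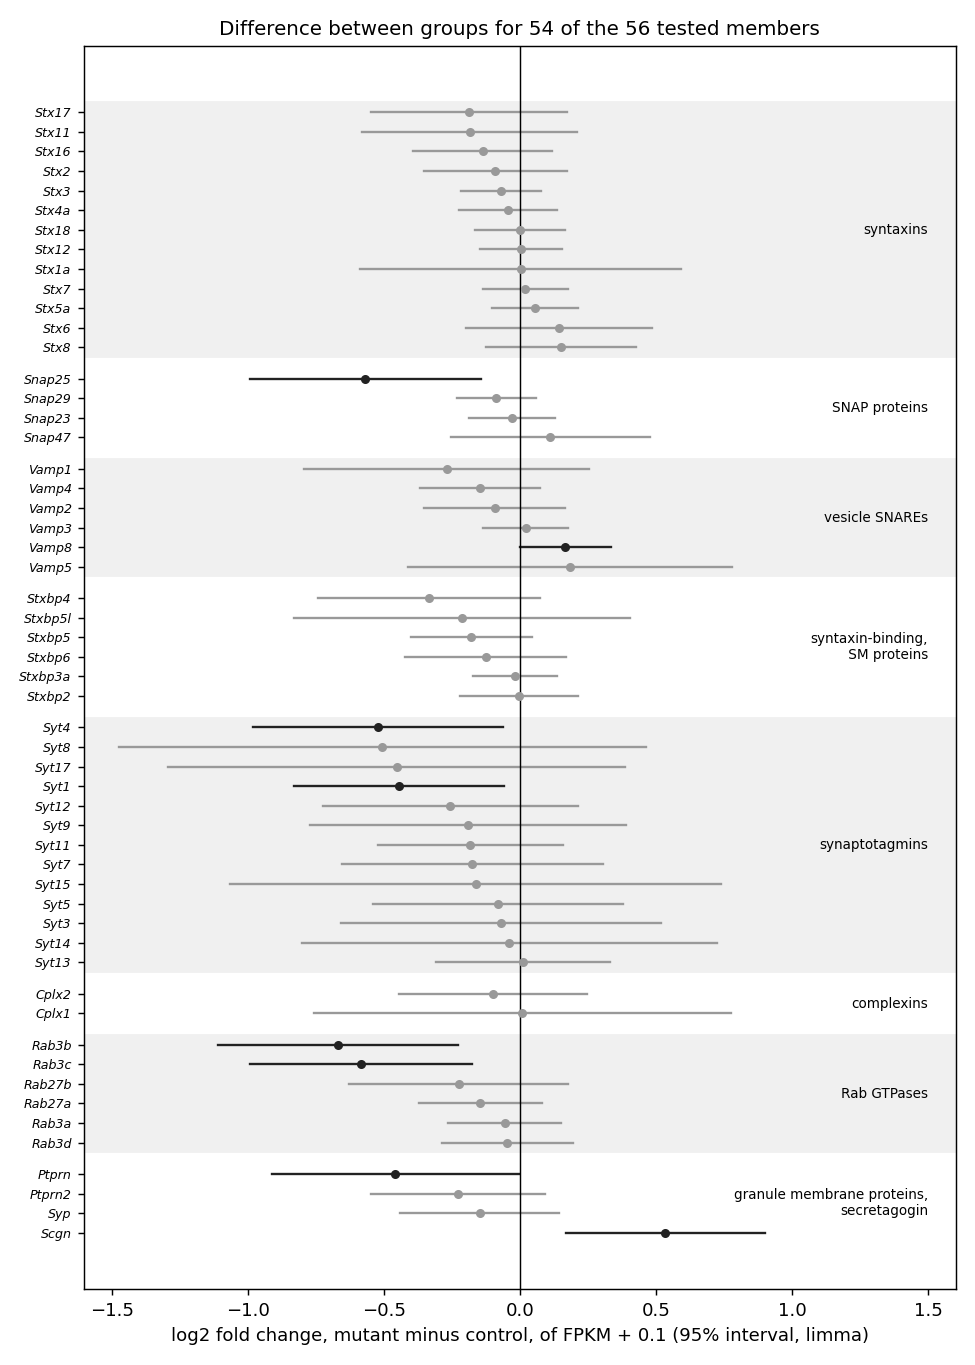
Log2 fold change, mutant minus control, on the log2(FPKM + 0.1) scale with its 95% interval from limma for 54 of the 56 tested members, grouped by role. Black marks the 8 members with an unadjusted p under 0.05, and the intervals are narrowest for abundant genes such as Stx12 and widest for scarce ones such as Syt8.

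The intervals were narrower for abundant members. For the 17 members with a mean of at least 10 FPKM, the 95% interval of the log2 fold change lay within 0.5 of zero for all 17, with 9 negative values. For the 24 members between 1 and 10 FPKM it did so for 10, and for the 15 tested members under 1 FPKM for 0. Abundant members such as Snap23, Stx12, Stx7, Stx3, Vamp3, Stxbp2 and Stxbp3a were thus measured to within a small change. For Syt8 and Syt17 the interval of the log2 fold change reached from −1.47 to 0.46 and from −1.29 to 0.39, so a difference as large as those estimated for the Rab3 genes lay within it.

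The neighbouring parts of the release pathway were read from lists of other genes. Over 84 genes for priming, docking, recycling, tethering, other SNAREs and vesicle membrane, 77 were tested, with 55 negative and 22 positive values and a median log2 fold change of −0.06, near the −0.05 of all rows. At an unadjusted p under 0.05, 4 were lower (5.19%, against 4.32% of all rows) and 1 was higher (1.3%, against 1.49%), shares close to the background. In the priming and docking list (29 tested, 24 negative, median −0.08), Exph5, a Rab27 effector, had 7.81 ± 1.48 and 5.56 ± 0.93 FPKM, and Sytl2, another Rab27 effector, had 6.6 ± 0.527 and 5.58 ± 0.353 FPKM (SD, n = 3 each). Their log2 fold changes were −0.48 and −0.24, both with limma adjusted p = 0.79. Among 4 genes that recycle SNARE bundles, Napb, the neuronal form of SNAP (a cofactor of the ATPase encoded by Nsf), had 0.795 ± 0.0301 and 0.557 ± 0.116 FPKM, a log2 fold change of −0.46 (limma adjusted p = 0.79). In the exocyst, a tethering complex, 7 of 9 values were negative, with Exoc5 at 15.2 ± 0.889 and 12.8 ± 1.1 FPKM.

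SNAREs of Golgi and endoplasmic reticulum traffic were the list with the opposite lean. Their mean levels ran from 8.24 to 97.1 FPKM, and signs varied with level over the whole data. Of all rows, 49.9% were negative at 10 FPKM or more, 70.5% between 1 and 10 FPKM and 67.7% under 1 FPKM. Of these 12 other SNAREs, 11 had a positive value (median log2 0.09), and Bet1, which acts between these compartments, was at 45.7 ± 3.47 and 53.3 ± 4.33 FPKM (SD, n = 3 each; log2 0.22, limma adjusted p = 0.79). Of 13 tested vesicle membrane genes 12 were negative (median −0.12) and none had an unadjusted p under 0.05, and of 5 other SM proteins 3 were negative (median −0.05). The ferlins and extended synaptotagmins had 5 negative of 5 tested (median −0.17).

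Marker lists for other cells of the wall, several of which use these proteins, were read in the same libraries, and the lists did not all lean the same way. Over 12 enteroendocrine markers all 12 values were negative, 5 of them at an unadjusted p under 0.05, and none was at 0 in every library. Their summed level ran from 210.03 to 226 FPKM in controls and from 133 to 162 FPKM in mutants, without overlap. Chga was at 32.3, 40.2 and 35.9 FPKM in controls, against 13.2, 18.3 and 14.9 FPKM in mutants. Of 14 enteric neuron markers 13 were tested, 10 with a negative value and none at an unadjusted p under 0.05, and the sums ran from 36.4 to 48.3 FPKM in controls and from 33.4 to 38.2 FPKM in mutants. Negative values made up 61.3% of all rows tested. Tubb3, a neuronal tubulin, was at 3.05, 2.88 and 3.13 FPKM in controls, against 1.74, 2.95 and 2.09 FPKM in mutants, and Elavl4, a neuronal RNA-binding protein, at 0.697 ± 0.17 and 0.625 ± 0.0978 FPKM (SD, n = 3 each). The 4 glial markers summed to between 2.82 and 4.01 FPKM in controls and between 2.46 and 3.19 FPKM in mutants. All 8 smooth muscle markers were negative and 7 had an unadjusted p under 0.05, with sums from 644.7 to 907 FPKM in controls and from 478 to 634 FPKM in mutants. Of 8 lymphoid and cytotoxic markers, whose cells use Vamp8, 6 were positive and 2 negative, with 1 in each direction at an unadjusted p under 0.05. These were Cd7, a T-cell surface protein (log2 0.36), and Prf1, the perforin gene (−0.46). Their sum, mostly Gzma, ran from 322 to 390 FPKM in controls and from 388 to 464 FPKM in mutants.

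How the members compared with those markers depended on the marker. The ratio of Rab3c to Tubb3 overlapped between the groups, at 0.378 ± 0.0238 and 0.331 ± 0.0364, as did that of Snap25 to Tubb3, at 1.05 ± 0.121 and 0.948 ± 0.0776 (SD, n = 3 each). Relative to Uchl1, another neuronal marker, Rab3b and Rab3c were below all controls in every mutant, with 0.133 ± 0.0154 and 0.0873 ± 0.0119 for Rab3b and 0.173 ± 0.00855 and 0.124 ± 0.0217 for Rab3c, whereas Snap25, at 0.481 ± 0.0897 and 0.357 ± 0.0686, and Syt1, at 0.162 ± 0.0289 and 0.128 ± 0.015, overlapped. Relative to Chga, every mutant was above every control for Rab3b, at 0.0243 ± 0.00149 and 0.0338 ± 0.00603, for Rab3c, at 0.0318 ± 0.00362 and 0.0473 ± 0.00139, and for Snap25, at 0.0889 ± 0.0216 and 0.136 ± 0.00735. Chga was thus lower in mutants by a larger factor than these members. It had the lowest log2 fold change of the 12 endocrine markers, −1.23 beside a list median of −0.34. The log2 fold changes of Rab3b (−0.67), Rab3c (−0.58) and Snap25 (−0.57) lay below that median, so the ratios to Chga do not stand for the endocrine markers as a list.

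With the enteric neuron marker level as a covariate in limma, the log2 fold change was −0.27 for Snap25 and −0.16 for Ptprn, with unadjusted p of 0.13 and 0.4. It was −0.46 for Rab3c (0.084), −0.32 for Syt1 (0.17) and −0.37 for Syt4 (0.18), while Rab3b was at −0.76 (0.023) and Scgn at 0.65 (0.02). The adjusted p of each was 1 in that fit. With the level of the acinar markers as a covariate instead, Rab3b (log2 −0.74, unadjusted p = 0.016), Rab3c (−0.64, 0.022) and Scgn (0.52, 0.033) stayed under 0.05. Snap25 (−0.51, 0.057), Syt4 (−0.58, 0.0502), Syt1 (−0.36, 0.11), Ptprn (−0.38, 0.15) and Vamp8 (0.19, 0.074) did not, and Vamp5 was under it (0.54, 0.0071), all with limma adjusted p = 0.84. Of the 13 tested enteric neuron markers 10 leaned lower in mutants, so a fit with their level cannot fully separate it from the group. Under the enteric neuron covariate 1.5% of all rows were lower at an unadjusted p under 0.05, and under the acinar covariate 3.08%, against 4.32% without a covariate. Of the 48 other members, 15 and 10 changed sign in these fits. The part of the nerve marker level thus cannot be told apart from the group, and that of the endocrine, muscle, glial and lymphoid marker levels was not tested.

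**Figure D4:**
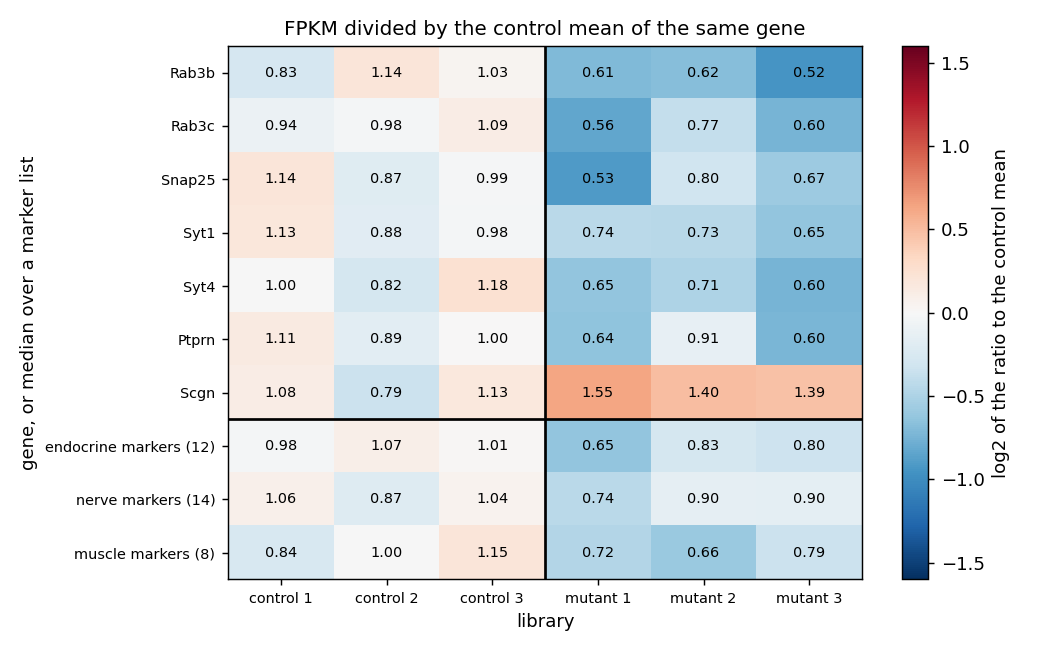
FPKM of 7 members in each library divided by the gene's control mean, and below the line the median of the same ratio over 12 endocrine, 14 nerve and 8 muscle markers, with colour on a log2 scale. Rab3b lies between 0.519 and 0.623 in the mutants and Scgn between 1.39 and 1.55, while the endocrine marker median lies between 0.646 and 0.825 and the nerve marker median between 0.743 and 0.901.

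In the authors' deposited table, a DESeq comparison of read counts, no member passed an adjusted p of 0.05 either, and 7 genes (0.0378%) did among all 18541 with a p-value. At an unadjusted p under 0.05 that table had 3 of 61 members lower (4.92%, against 0.917% of its genes) and 1 higher (1.64%, against 0.696%). These 4 were Rab3c, Rab3b, Snap25 and Scgn, each also under that threshold in limma, on the same libraries and reads. The authors' deposited mean counts were 181.9 and 120.9 for Rab3c (unadjusted p = 0.0048), 52 and 29.9 for Rab3b (0.014), 122 and 84.8 for Snap25 (0.043), and 68.9 and 102.3 for Scgn (0.019). The adjusted p was 1 for each in the authors' deposited table.

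Transcript tables held 88 RefSeq transcripts for the members, with 15 genes having several. Stx3 was read mainly from NM_152220, at 27.3 ± 0.521 and 26.6 ± 1.09 FPKM, with NM_011502 at 7.42 ± 0.432 and 6.46 ± 0.84 FPKM (SD, n = 3 each). Snap23 came from NM_009222, at 28.6 ± 1 and 27.7 ± 1.84 FPKM, with NM_001177793 between 0.938 and 4.37 FPKM. For Vamp1, NM_001080557 was at 2.61, 2.6 and 1.61 FPKM in controls, against 1.03, 1.73 and 1.84 FPKM in mutants, and NM_009496 was at 0.974, 0.00113 and 0.679 FPKM in controls, against 0.737, 0.909 and 0.716 FPKM in mutants. Snap25, Rab3b, Rab3c, Scgn, Syt4, Ptprn and Vamp8 had 1 transcript each in these tables. In the mm9 annotation, Rab3b, Scgn, Snap25 and Syt4 overlap a noncoding gene or pseudogene on the opposite strand. Rab3a overlaps the protein-coding gene Mpv17l2 and Snap29 the protein-coding gene Pi4ka, also on the opposite strand. No source used here says whether the counting used strand, so reads of such partners cannot be told apart from those of the member.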

How the data were processed

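RNA-seq libraries of 6 mice were compared, 3 control and 3 mutant, grouped by their titles and genotypes. The submitters' processing notes name mm9 as the build and DESeq, Cufflinks, TopHat and CASAVA 1.8.2 as tools. The read counter and other versions are not stated there. Per the file headers, gene and transcript tables hold FPKM with a confidence interval per gene and per RefSeq transcript. The transcript tables also hold coverage as the authors deposited it, which was not used here. The authors' deposited comparison holds group means of size-factor-scaled read counts (a signal), their quotient (a ratio), its log2, and p-values. Gene starts in the files count from 0 (13297 of 23699 equal an annotated mm9 start after adding 1) and are printed 1-based.

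Members and gene lists were chosen with earlier results of these data known. The test was limma 3.58.1 (R 4.3.3), with a variance trend over mean level, on log2(FPKM + 0.1). It took the 15864 rows whose mean reached 0.1 FPKM, with no rescaling, covariate or block, and Benjamini-Hochberg adjustment over all rows. It was tested on simulated data. Each p-value sets the group difference against the spread between these mice, with each gene's variance drawn toward the trend over all rows. Reads were inferred from each FPKM and its interval, taking the distance to the upper bound as 2 standard errors. In low genes with 1 transcript, 87.8% to 88.2% of values were within 0.05 of a whole number. Ratios between genes are of FPKM within a library and carry no test. Same-numbered mice deviated together (correlations of 0.106, 0.207 and 0.389 over tested rows, although control 1 also reached 0.127 with mutant 2), and Xist and Y-linked transcripts put 2 libraries, replicate 3 of each group, apart from the other 4. Members named with full values had an unadjusted p under 0.05 or were among the highest of their role or fixed neuroendocrine members with their paralogs. Promoter windows are RefSeq's on GRCm38.p6. Of the 56 tested members, 2 enter the counts but are not reported one by one here.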

Additional observations from a re-analysis of the deposited data

How the results depend on the processing

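No member passed an adjusted p of 0.05 in any of 19 alternative limma fits. The count of members lower at an unadjusted p under 0.05 was 6, and it was 1 with a minimum mean of 1 FPKM (where Rab3b, Rab3c, Syt1 and Syt4 were below the filter), 8 with no filter (with Snap29, Syt2 and Vamp4 and without Ptprn), 7 without the variance trend, 3 with quantile normalization, 2 with the acinar covariate and 1 with the enteric neuron covariate. Leaving out 1 mouse at a time gave from 3 to 8, with 3 without control 1, mutant 1 or mutant 3 and 8 without mutant 2. Over all rows the share lower moved too, from 4.32% in the main fit to 2.47%, 2.8% and 2.71% without control 1, mutant 1 and mutant 3. It was 5.64% without mutant 2, 4.57% with a minimum mean of 1 FPKM, 4.31% with no filter and 4.96% without the variance trend. With quantile normalization it was 2.72%, with the acinar covariate 3.08% and with the enteric neuron covariate 1.5%. The count of members higher was 2, and it was 1 with quantile normalization, without the variance trend, with library quality weights, with the replicate block, with the enteric neuron covariate and without any 1 mouse. The share of all rows higher moved as well, in both directions. It was 1.494% in the main fit, 2.269% with quantile normalization and 1.317% without the variance trend. With library quality weights it was 1.418%, with the replicate block 2.805% and with the enteric neuron covariate 0.706%. Leaving out 1 mouse gave from 1.182% without control 1 to 2.277% without control 2. With the replicate block the members lower numbered 5, beside 5.09% of all rows. The block gave no member an adjusted p under 0.05, while over all rows 2 passed it. The median log2 fold change of the members ran from −0.15 to −0.02.

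The 8 members with an unadjusted p under 0.05 kept their sign in 148 of 148 fits that could test them. They were picked by that p in the same libraries, and each fit reuses the same values. The kept signs and the counts of fits below therefore show dependence on settings only and add no support. That p was under 0.05 for Rab3b in 18 of 18 alternatives, Scgn in 19 of 19, Rab3c in 17 of 18 and Snap25 in 16 of 19. Snap25 was lost without control 1 and with either tissue covariate, and its log2 fold change ran from −0.7 to −0.27. The fit by voom on implied reads was chosen after seeing the data and gave 5 lower and 2 higher, beside 4.93% and 1.17% of all rows. Over all rows, the split at an unadjusted p under 0.05 was 237 higher and 685 lower, and 401 and 494 with trimmed mean scaling, 360 and 431 with quantile normalization. Depth limits most the tested members with fewer than 11 implied reads per library on average, among them Syt3, Syt8, Syt14, Syt17 and Cplx1; Rab3c, also under 1 FPKM, rests on 153.8.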

Other observations

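Chosen after the values were seen: the lean toward lower values lay with the scarce members. Of the 15 tested members under 1 FPKM, 14 (93.3%) had lower estimates in mutants (median log2 −0.33), and so did 67.7% of all rows under 1 FPKM (median −0.13). Between 1 and 10 FPKM, 19 of 24 members (79.2%) were negative beside 70.5% of all rows, and at 10 FPKM or more 9 of 17 (52.9%) beside 49.9%. Rab3b, Rab3c, Syt1 and Syt4 are among these scarce members.

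Assignment of reads to transcripts differed between libraries for some members. Nearly all of Syt1 was placed on NM_001252342 in control 1 and mutant 2 (1.21 and 0.778 FPKM) and on NM_009306 in the other 4 libraries. Stxbp5l was placed mainly on NM_001114611 in the 3 controls and mutant 1 and on NM_001114612 in mutants 2 and 3 (0.194 and 0.132 FPKM), on few reads over a transcript of 11989 bases.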
